A study of Mus musculus with 6 samples.

Results

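Hearts of mice given carfilzomib together with electroacupuncture (CFZ_EA) were compared with hearts of mice given carfilzomib alone (CFZ), by RNA sequencing of 2 libraries in each group. The 4 libraries were chosen by their labels from the 6 of the series, and the 2 control libraries are given beside them. Genes with a mean of at least 1 FPKM (fragments scaled to transcript length and library depth) over the 6 libraries were kept, which left 10329 of the 26835 genes listed. At this limit Nek3 lay just outside, with a mean of 0.99999 FPKM, and 4833419F23Rik just inside, with 1.00010 FPKM. All mice were C57BL/6 of the genotype that the labels write as "wide type", aged 7 to 8 weeks and weighing 20 g within 2 g. CFZ and CFZ_EA mice both received carfilzomib at 8 mg/kg into the peritoneum, and CFZ_EA mice also had electroacupuncture at the PC6 acupoint. Control mice received 10% DMSO by the same route and no carfilzomib. The groups listed hold no mice with electroacupuncture alone and none with needles but no current. Days 0, 2, 4 and 6 are listed for all libraries, with no event named for any day. The labels leave out which part of the heart was sampled and whether the replicates of a group are separate mice. The p-values therefore cover the spread among these samples alone, and this spread may be technical.

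Carfilzomib binds irreversibly to the proteasome, the complex that degrades proteins marked with ubiquitin, and is given to patients with multiple myeloma. Heart failure and hypertension are known adverse effects. Electroacupuncture passes a current through inserted needles, and PC6 lies on the inner side of the forelimb above the wrist. A heart holds atrial and ventricular muscle, the endocardium that lines its chambers, valves of dense collagen, the epicardium on its surface, fibroblasts and a dense capillary bed, and each of these has marker genes by which its RNA can be followed in a mixed sample.

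Of the 10329 genes, 2 were called higher in CFZ_EA than in CFZ (0.0194% of those tested) and 0 were called lower (0%) in edgeR's quasi-likelihood test at an adjusted p (Benjamini-Hochberg) under 0.05. At an unadjusted p under 0.05 there were 208 higher (2.01%) and 111 lower (1.07%). DESeq2, run as an alternative, called 38 genes higher (0.368%) and 17 lower (0.165%), and both of edgeR's genes were among them. Both CFZ_EA libraries lay above both CFZ libraries for 1723 genes (16.7%) and below both for 1724 (16.7%), on CPM, the counts scaled to library depth with TMM factors. The counts given for each gene list below are to be read beside these shares. All lists were written with earlier results of these data known, so their counts describe and do not test. The median log2 fold change over all genes tested was -0.0084, with 4967 genes higher and 5362 lower. The smallest p that an exact test of 2 libraries against 2 can give is 0.333, and no such test was run.

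These sequences bear on the genes that stood apart. They are the mature microRNA of Mir8114, 1 of the 2 called genes, and the promoters of Nppa, Myl7 and Mybphl, atrial muscle genes that were higher together in both CFZ_EA libraries, and of Sost, the gene of a secreted Wnt inhibitor, which stood at similar levels in both CFZ_EA libraries. Promoters are the 250 bases before the RefSeq start (build GRCm38.p6), read 5′ to 3′ on the strand of the gene. Capitals mark the seed (bases 2 to 8) of the microRNA and, in the promoters, matches on either strand to 1 of 5 searched motifs of heart transcription factors. CAAGTG was searched for NKX2-5. AGGTGT was searched for T-box factors. For factors of the GATA family the motif was AGATAA, and the MEF2 motif and the CArG box of SRF completed the set.
mmu-miR-8114: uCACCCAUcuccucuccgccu
Nppa promoter: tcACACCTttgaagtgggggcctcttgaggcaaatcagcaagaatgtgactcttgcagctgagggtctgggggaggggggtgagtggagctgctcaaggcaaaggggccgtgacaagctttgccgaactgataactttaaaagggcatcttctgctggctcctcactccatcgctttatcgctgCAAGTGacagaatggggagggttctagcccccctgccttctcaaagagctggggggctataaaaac
Myl7 promoter: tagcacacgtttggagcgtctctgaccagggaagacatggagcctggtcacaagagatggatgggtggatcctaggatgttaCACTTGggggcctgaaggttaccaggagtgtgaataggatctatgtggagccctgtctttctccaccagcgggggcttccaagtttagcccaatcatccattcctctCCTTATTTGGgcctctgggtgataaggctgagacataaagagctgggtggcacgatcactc
Mybphl promoter: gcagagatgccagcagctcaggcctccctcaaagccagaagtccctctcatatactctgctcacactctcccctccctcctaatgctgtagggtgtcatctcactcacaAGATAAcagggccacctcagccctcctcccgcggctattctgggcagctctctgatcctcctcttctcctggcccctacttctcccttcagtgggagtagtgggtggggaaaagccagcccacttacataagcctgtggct
Sost promoter: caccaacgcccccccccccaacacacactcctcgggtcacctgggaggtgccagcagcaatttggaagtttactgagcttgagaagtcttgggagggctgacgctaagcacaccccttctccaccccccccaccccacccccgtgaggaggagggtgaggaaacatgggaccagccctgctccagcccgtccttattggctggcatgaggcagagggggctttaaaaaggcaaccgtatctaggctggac
The microRNA lies at chr1:153899989-153900009 on the plus strand, and no other mature mouse microRNA of the RefSeq table shares its seed. The promoters are at chr4:148000472-148000721 on the plus strand (Nppa), chr11:5898783-5899032 on the minus strand (Myl7), chr3:108364661-108364910 on the plus strand (Mybphl) and chr11:101967016-101967265 on the minus strand (Sost). Nppa had a T-box match and an NKX2-5 match, Myl7 an NKX2-5 match and a CArG box, Mybphl a GATA match, and Sost none. No match overlapped another motif. Among 32851 promoter windows of the same length in the table, 11.6% held the NKX2-5 motif, 11.8% the T-box motif, 9.99% the GATA motif, 1.69% the MEF2 motif and 1.47% the CArG box. A match describes the letters only and is not evidence of binding.

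The 2 called genes, a model of Sept2 and Mir8114, had values near 0 in both CFZ libraries and similar values in all other libraries. Sept2 encodes a septin, a GTP-binding protein of the cytoskeleton. Its first model (ENSMUSG00000116048, chromosome 1, 93478993 to 93509733) measured 12.2 and 15.6 FPKM in CFZ_EA, 0 and 0 FPKM in CFZ, and 11.5 and 16.1 FPKM in control. Its counts summed to 7229 in CFZ_EA and to 0 in CFZ. With 3 counts as the floor of each CFZ library, it was at least 1105-fold higher in CFZ_EA (edgeR adjusted p = 0.00745). A second Sept2 model (ENSMUSG00000026276, chromosome 1, 93478964 to 93510260) covers the same stretch on the same strand and went the opposite way. It measured 0.745 and 0.227 FPKM in CFZ_EA, 6.42 and 5.70 FPKM in CFZ, and 1.33 and 0.261 FPKM in control. With the counts of both models summed, Sept2 had a log2 fold change of 0.07 ± 0.13 (standard error).

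Mir8114 (ENSMUSG00000099227, chromosome 1, 153899926 to 153900036) overlaps the start of Glul, the glutamine synthetase gene, on the same strand, and reads of the 2 models cannot be told apart with certainty. It measured 54.8 and 43.1 FPKM in CFZ_EA, 0.0186 and 0.064 FPKM in CFZ, and 64.0 and 47.7 FPKM in control. Its counts summed to 833 in CFZ_EA and 2 in CFZ, so the ratio was 382, and its 95% counting interval ran from 105 to 3159 (edgeR adjusted p = 0.0088). Glul measured 63.0 and 57.5 FPKM in CFZ_EA and 61.8 and 83.0 FPKM in CFZ, so its libraries overlapped. Summed with Glul, the locus had a log2 fold change of -0.23 ± 0.21. A library made from longer RNA fragments measures what maps to this stretch and not the mature microRNA printed above.

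Usp50, of the ubiquitin-specific protease family, also lay near 0 in CFZ and shared its strand and stretch with another model. It measured 1.63 and 2.13 FPKM in CFZ_EA, 0.017 and 0 FPKM in CFZ, and 0 and 2.24 FPKM in control, and was not called (edgeR adjusted p = 0.9997). Usp50 would not have passed the filter without the CFZ_EA libraries. Its counts summed to 913 in CFZ_EA and 4 in CFZ, a ratio of 209 whose counting interval ran from 81.5 to 770. Gm10774, a processed pseudogene inside it, measured 0.0582 and 0.0551 FPKM in CFZ_EA, 9.41 and 12.4 FPKM in CFZ, and 14.7 and 0.079 FPKM in control. The summed locus had a log2 fold change of 1.38 ± 0.41. In these 3 pairs the model that was high in CFZ_EA was near 0 in CFZ, except that Glul was present in all libraries. Deposited counts may exceed the number of reads, and the bound for Sept2 would then be too high and the counting intervals too narrow. Of the 10329 genes, 1716 overlapped another gene on the same strand.

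**Figure D1:**
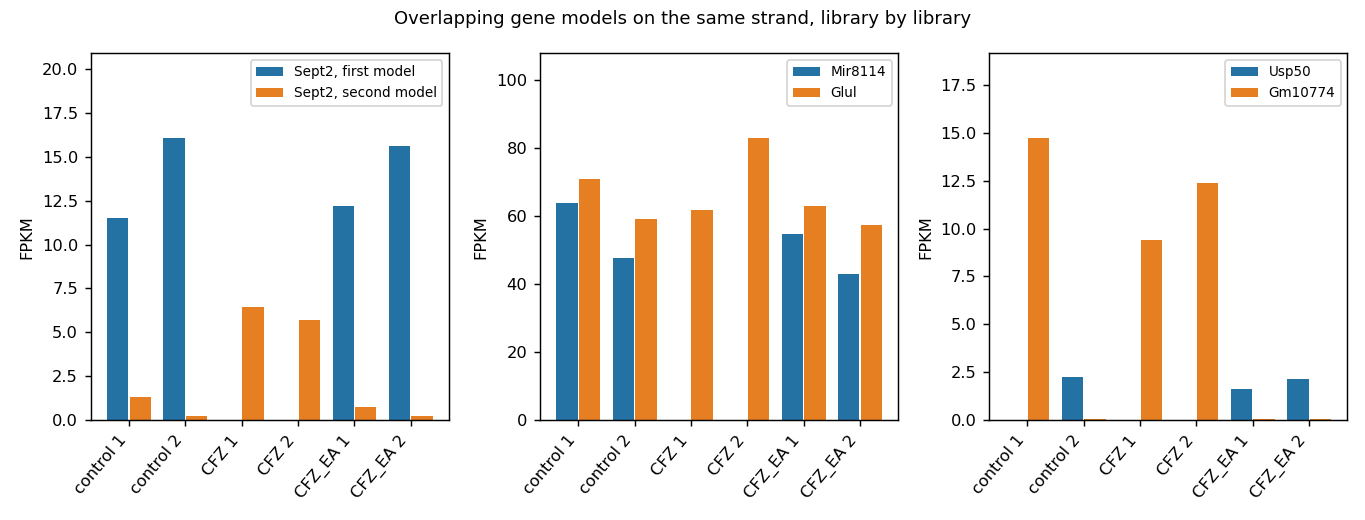
FPKM of 3 pairs of overlapping gene models (y axis, linear from 0) in each of the 6 libraries (x axis), with 1 bar per model. The first Sept2 model and Mir8114 are at or near 0 in both CFZ libraries, and the second Sept2 model and Gm10774 are high there.

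Most tested genes of a valve and tendon matrix list were higher in both CFZ_EA libraries. The list was written with earlier results of these data known, so its counts describe its members and are no test. Of 14 genes in this list 11 passed the filter, 10 of the 11 lay higher in both CFZ_EA libraries than in both CFZ libraries, and 8 had an unadjusted p under 0.05, while edgeR called 0. Their median log2 fold change was 1.70, and against the CFZ mean the medians were 1.64 in CFZ_EA replicate 1 and 1.39 in replicate 2. The fitted median was 0.80 with limma on log2(FPKM + 1). At a mean FPKM of at least 5 only Mgp of this list remained, so the value of 0.66 there was that of Mgp alone. Of the 11, 7 had a CFZ mean of at least 1 FPKM, so they would have passed without the CFZ_EA libraries, and 6 of these 7 were higher in both. DESeq2 called 5 of the 11.

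Comp, the cartilage oligomeric matrix protein (chromosome 8, 70373558 to 70382066), measured 3.93 and 6.92 FPKM in CFZ_EA, 1.12 and 1.33 FPKM in CFZ, and 4.999 and 7.97 FPKM in control. The lower CFZ_EA library thus stood well clear of the higher CFZ library, and the fitted log2 fold change was 2.15 ± 0.35 (edgeR adjusted p = 0.56, and DESeq2 adjusted p = 5.6e-06). Angptl7, a secreted angiopoietin-like protein, measured 1.42 and 0.921 FPKM in CFZ_EA, 0.341 and 0.362 FPKM in CFZ, and 2.01 and 1.52 FPKM in control (log2 fold change 1.72 ± 0.35). Thbs4, a thrombospondin of tendon matrix, measured 2.92 and 1.98 FPKM in CFZ_EA, 0.751 and 0.758 FPKM in CFZ, and 1.43 and 3.72 FPKM in control (1.70 ± 0.44). For Angptl7 and Thbs4 the first CFZ_EA library was the higher one, and the CFZ libraries differed little from each other. Cilp2, a cartilage intermediate layer protein, was uneven, at 0.647 and 4.77 FPKM in CFZ_EA, 0.189 and 0.0814 FPKM in CFZ, and 1.897 and 1.80 FPKM in control (4.34 ± 0.99). Its fitted value was 2.25 without CFZ_EA replicate 2. With means of 0.135 FPKM in CFZ and 1.85 FPKM in control, Cilp2 would not have passed the filter without the CFZ_EA libraries.

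The other members were named after their values were seen. Fmod, the collagen-binding fibromodulin, measured 5.04 and 4.24 FPKM in CFZ_EA against 1.93 and 0.687 FPKM in CFZ. Mgp, which restrains calcification, measured 166 and 195 FPKM in CFZ_EA against 112 and 122 FPKM in CFZ. Prg4, Wif1, Cilp and Chad were also higher in both CFZ_EA libraries, with log2 fold changes of 0.99, 1.04, 1.28 and 3.08. With means of 0.283 FPKM in CFZ and 1.27 FPKM in control, Chad would not have passed the filter without the CFZ_EA libraries. Scx, the tendon transcription factor scleraxis, was the exception at 2.95 and 1.97 FPKM in CFZ_EA and 2.49 and 2.56 FPKM in CFZ. Summed over the 14 genes, the list held 193 and 224 FPKM in CFZ_EA, 123 and 131 FPKM in CFZ, and 203 and 305 FPKM in control. Mgp, at 176 and 269 FPKM in control, made up most of the sum in every library. The share of valve and tendon tissue in the samples was not tested. In bulk samples fewer cells of a type and less RNA per cell cannot be told apart.

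Sost, the gene of sclerostin, a secreted inhibitor of Wnt signalling, measured 2.35 and 3.38 FPKM in CFZ_EA, 0.511 and 0.725 FPKM in CFZ, and 2.46 and 2.65 FPKM in control. The CFZ_EA and control libraries covered about the same range and both CFZ libraries lay below it, with a log2 fold change of 2.21 ± 0.32 for CFZ_EA against CFZ (edgeR adjusted p = 0.534). The gene 1500015O10Rik, chosen after its values were seen, was also lowest in both CFZ libraries, with the control libraries above CFZ_EA. It measured 2.57 and 2.35 FPKM in CFZ_EA, 0.174 and 0.18 FPKM in CFZ, and 3.92 and 6.34 FPKM in control, with a log2 fold change of 3.70 ± 0.35 (edgeR adjusted p = 0.136).

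Markers of the endocardium and veins were higher as well, with 5 of 7 genes tested, 4 of the 5 higher in both CFZ_EA libraries, and 2 of the 3 with a CFZ mean of at least 1 FPKM. Their median log2 fold change was 1.39, and edgeR called 0. Cytl1, a small secreted protein, measured 18.4 and 26.3 FPKM in CFZ_EA, 7.82 and 9.29 FPKM in CFZ, and 18.7 and 21.4 FPKM in control (1.39 ± 0.23, edgeR adjusted p = 0.56). Plvap, which forms the diaphragms of fenestrated vessels, measured 12.3 and 20.8 FPKM in CFZ_EA against 4.31 and 6.95 FPKM in CFZ (1.56 ± 0.44). Npr3, the clearance receptor of natriuretic peptides, measured 0.803 and 2.38 FPKM in CFZ_EA against 0.390 and 0.507 FPKM in CFZ (1.83 ± 0.51). With means of 0.448 FPKM in CFZ and 1.19 FPKM in control, Npr3 would not have passed the filter without the CFZ_EA libraries. All 3 genes had CFZ_EA libraries clear of the CFZ libraries, with replicate 2 the higher.

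Atrial muscle genes showed the largest differences among the lists with at least 5 tested genes, with a wide spread between the 2 CFZ_EA libraries. Of 15 genes 13 passed the filter, 11 were higher in both CFZ_EA libraries and had an unadjusted p under 0.05, and edgeR called 0. Of 12 with a CFZ mean of at least 1 FPKM, 11 were higher in both. The median log2 fold change was 3.46, and the medians of the single libraries against the CFZ mean were 1.62 for CFZ_EA replicate 1 and 4.24 for replicate 2. Without CFZ_EA replicate 2 the fitted median was 1.62. DESeq2 called 4 of the 13.

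Mybphl, a myosin-binding protein of atrial muscle, measured 12.98 and 86.5 FPKM in CFZ_EA, 3.34 and 0.534 FPKM in CFZ, and 40.1 and 25.8 FPKM in control (log2 fold change 4.73 ± 1.18). Myl4, an atrial light chain of myosin, measured 42.9 and 215 FPKM in CFZ_EA, 14.0 and 1.85 FPKM in CFZ, and 113 and 66.8 FPKM in control (4.08 ± 1.16). Sln, the gene of sarcolipin, which restrains the calcium pump of the sarcoplasmic reticulum, measured 22.03 and 131 FPKM in CFZ_EA, 7.23 and 0.483 FPKM in CFZ, and 77.2 and 37.7 FPKM in control (4.37 ± 1.38). In each of these genes the control libraries lay between the 2 CFZ_EA libraries, and the first CFZ library was several times above the second. Nppa, the atrial natriuretic peptide gene, was closer between the CFZ libraries, at 233 and 187 FPKM, against 646 and 3882 FPKM in CFZ_EA and 1887 and 1083 FPKM in control. Myl7, the other atrial light chain, measured 241 and 1381 FPKM in CFZ_EA and 77.6 and 11.5 FPKM in CFZ, and the kinase gene Sbk3 measured 8.10 and 32.7 FPKM in CFZ_EA and 2.93 and 0.946 FPKM in CFZ.

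Gja5, the gap junction protein connexin 40 of atria, conduction fibres and arteries, measured 2.10 and 5.26 FPKM in CFZ_EA and 1.68 and 1.63 FPKM in CFZ (1.17 ± 0.42). Bmp10, a growth factor made by atrial muscle, did not follow the others. It measured 0.0117 and 55.7 FPKM in CFZ_EA, 0.0942 and 0.0241 FPKM in CFZ, and 22.6 and 0.167 FPKM in control, so that it was high in only 1 library of CFZ_EA and 1 of control. Its fitted log2 fold change of 8.85 ± 3.73 became -2.26 without CFZ_EA replicate 2. Summed over the 15 atrial genes, the list held 1031 and 5918 FPKM in CFZ_EA, 378 and 233 FPKM in CFZ, and 2960 and 1696 FPKM in control. Markers of ventricular muscle summed to 10480 and 9508 FPKM in CFZ_EA and 10774 and 11535 FPKM in CFZ, and the share of atrial tissue in the samples was not tested. Of 8 ventricular genes tested 7 were lower in CFZ_EA, with a median log2 fold change of -0.09. Myl2, the ventricular light chain, measured 4513 and 4222 FPKM in CFZ_EA and 4686 and 5290 FPKM in CFZ (-0.19 ± 0.21).

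**Figure D2:**
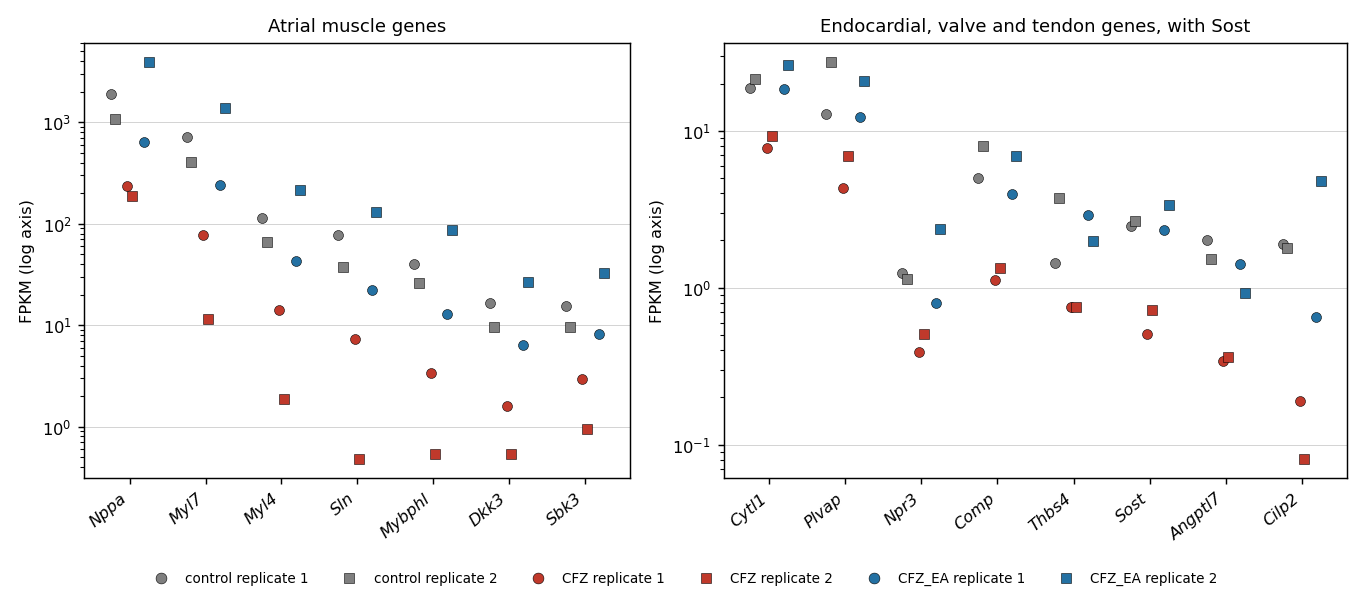
FPKM (y axes, log scale) of atrial muscle genes (left) and of endocardial, valve and tendon genes and Sost (right), with circles for replicate 1 and squares for replicate 2 of each group. Every gene shown has both CFZ_EA libraries above both CFZ libraries.

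Epicardial and mesothelial markers differed mainly in the second CFZ_EA library. Of 13 genes 8 were tested and 5 were higher in both CFZ_EA libraries, with a median log2 fold change of 1.14, which was 0.29 in CFZ_EA replicate 1 and 1.73 in replicate 2. Krt19, an epithelial keratin, measured 0.598 and 1.84 FPKM in CFZ_EA, 0.484 and 0.303 FPKM in CFZ, and 4.49 and 12.7 FPKM in control (1.65 ± 0.69). Upk1b, a uroplakin, measured 0.446 and 1.004 FPKM in CFZ_EA and 0.324 and 0.201 FPKM in CFZ (1.48 ± 0.60). Both genes had first CFZ_EA libraries only a little above CFZ, and control libraries above all others. Only 4 of the 8 had a CFZ mean of at least 1 FPKM, and 2 of those were higher in both CFZ_EA libraries. Summed over the 13 genes the list held 32.1 and 45.9 FPKM in CFZ_EA, 23.1 and 27.5 FPKM in CFZ, and 57.8 and 251 FPKM in control.

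Fibroblast markers were higher by small amounts, and 15 of 16 were higher in CFZ_EA replicate 2 than in replicate 1. All 16 were tested and had positive log2 fold changes, 15 were higher in both CFZ_EA libraries, and the median was 0.40, with 0.32 and 0.54 in the single libraries. Ddr2, a collagen receptor, measured 0.943 and 1.47 FPKM in CFZ_EA and 0.674 and 0.684 FPKM in CFZ (0.84 ± 0.28). Fbln1, a matrix protein of elastic fibres, measured 25.6 and 32.9 FPKM in CFZ_EA and 20.6 and 17.1 FPKM in CFZ (0.65 ± 0.26). Ogn, a small proteoglycan, measured 7.11 and 11.1 FPKM in CFZ_EA and 5.65 and 5.77 FPKM in CFZ (0.69 ± 0.28). In none of these 3 genes did the CFZ and CFZ_EA values overlap. Collagen and other matrix genes had 28 of 31 tested members higher, 17 of them in both libraries, and a median of 0.29, which was 0.55 without CFZ replicate 1 and 0.12 without CFZ replicate 2. Postn, a matricellular protein of activated fibroblasts, measured 0.899 and 1.70 FPKM in CFZ_EA, 0.413 and 0.343 FPKM in CFZ, and 1.43 and 13.2 FPKM in control. In these 2 lists edgeR called 0 genes.

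**Figure D3:**
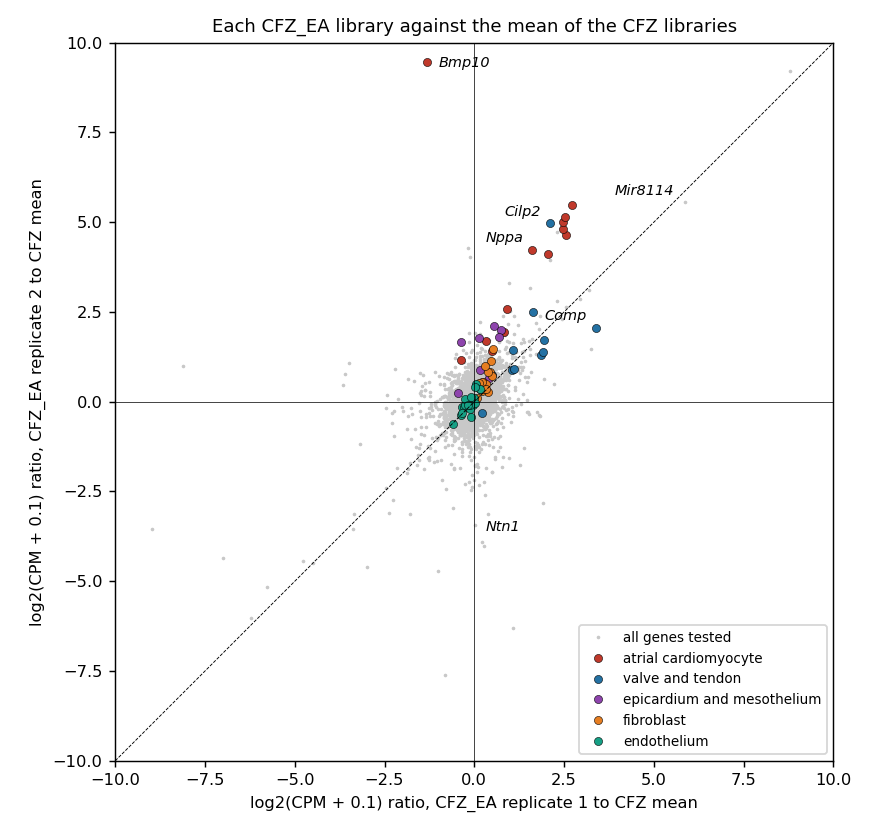
Log2 ratio of each gene in CFZ_EA replicate 1 (x axis) and replicate 2 (y axis) to the mean of the CFZ libraries, on CPM + 0.1, with 5 lists coloured and the dashed line marking equal ratios. Both axes share the CFZ mean, so points lean along the diagonal in part by construction. Atrial and epicardial genes lie above the line, valve and tendon genes lie on both sides of it.

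Endothelial markers were lower on balance. All 21 were tested, 16 had negative log2 fold changes, 11 were lower in both CFZ_EA libraries and 1 was higher in both, and the median was -0.15. Fabp4, a fatty acid-binding protein of capillary endothelium, measured 91.1 and 86.7 FPKM in CFZ_EA, 113 and 156 FPKM in CFZ, and 118 and 111 FPKM in control (-0.60 ± 0.21). Sox18, an endothelial transcription factor, measured 37.0 and 36.5 FPKM in CFZ_EA, 45.4 and 47.1 FPKM in CFZ, and 43.2 and 42.6 FPKM in control (-0.33 ± 0.12). For both genes the 2 CFZ_EA libraries were close to each other and below the other 4. Of 8 pericyte markers 5 were lower in both CFZ_EA libraries (median -0.16), and the summed level of the endothelial list was 833 and 800 FPKM in CFZ_EA against 939 and 967 FPKM in CFZ. Of 9 smooth muscle genes tested 7 were higher and 2 lower (median 0.10), with 3 higher and 1 lower in both CFZ_EA libraries. All 9 were higher in CFZ_EA replicate 2 than in replicate 1. Cnn1, the actin-binding calponin, measured 1.54 and 3.44 FPKM in CFZ_EA and 0.842 and 1.11 FPKM in CFZ (1.36 ± 0.46), while Synpo2, an actin-bundling protein, measured 1.67 and 3.50 FPKM in CFZ_EA and 6.48 and 5.71 FPKM in CFZ (-1.22 ± 0.34).

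Nuclear genes of oxidative phosphorylation and of the mitochondrial ribosome were lower by small amounts in most members. Of 50 oxidative phosphorylation genes 47 had negative log2 fold changes, 21 were lower in both CFZ_EA libraries and 0 higher in both, with a median of -0.12. Ndufb5, a subunit of complex I, measured 50.5 and 48.5 FPKM in CFZ_EA, 68.7 and 70.9 FPKM in CFZ, and 62.0 and 59.0 FPKM in control (-0.49 ± 0.13, edgeR adjusted p = 0.9997). Of 40 mitochondrial ribosomal genes 37 were lower, 18 of them in both libraries, with a median of -0.13, and Mrpl11 of the large subunit measured 12.04 and 9.99 FPKM in CFZ_EA and 15.2 and 17.5 FPKM in CFZ (-0.56 ± 0.18). The median of the oxidative phosphorylation list was -0.0145 without CFZ replicate 2 and -0.214 without CFZ replicate 1, so its size rested on single libraries. The 13 protein-coding genes of the mitochondrial genome had a median of 0.34, with 3 higher in both libraries, near the 16.7% of all genes tested. Without CFZ_EA replicate 2 this median was 0.053 and without replicate 1 it was 0.57, while it was 0.15 without CFZ replicate 1 and 0.53 without CFZ replicate 2. Mitochondrial transcripts took 19.01% and 21.3% of the counts in CFZ_EA and 17.9% and 19.4% in CFZ. Among genes of fatty acid use 29 of 35 were lower (median -0.09), but only 4 were lower in both CFZ_EA libraries. Against the CFZ mean the list medians were 0.02 in CFZ_EA replicate 1 and -0.19 in replicate 2. The fitted median was 0.0195 without CFZ_EA replicate 2. Pparg, a nuclear receptor of lipid metabolism, measured 1.70 and 2.17 FPKM in CFZ_EA and 2.65 and 3.39 FPKM in CFZ (-0.64 ± 0.24). Among genes of cytosolic ribosomal proteins 35 of 38 were lower (median -0.08), and 10 were lower in both CFZ_EA libraries. In these 5 lists edgeR called 0 genes.

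**Figure D4:**
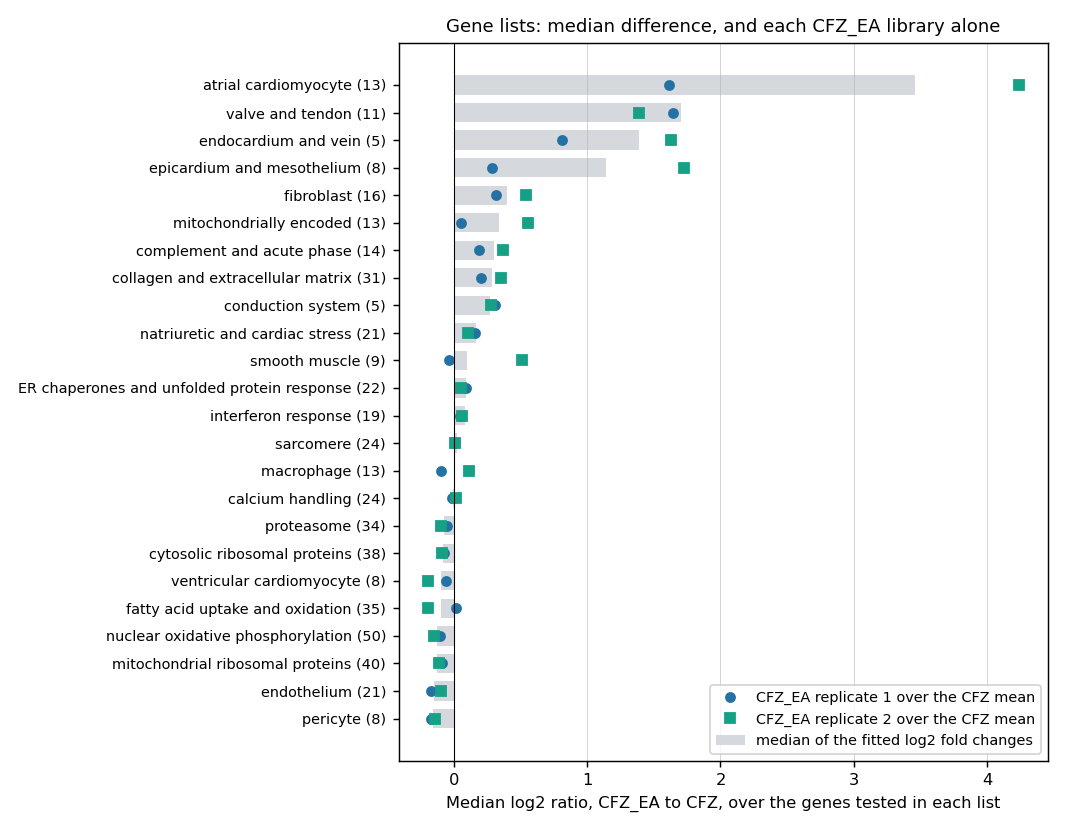
Median log2 ratio of CFZ_EA to CFZ for 24 gene lists (x axis), with the number of tested genes in brackets. Bars give the median of the fitted log2 fold changes, and circles and squares give the median of CFZ_EA replicate 1 and replicate 2 against the CFZ mean.

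The proteasome genes, whose products carfilzomib inhibits, were close between the groups. Of 34 tested genes 24 had negative log2 fold changes, with a median of -0.07, and 9 were lower and 3 higher in both CFZ_EA libraries. Over all genes tested these shares were 16.7% each. Psmb5, the subunit to which carfilzomib binds, measured 128 and 128 FPKM in CFZ_EA, 131 and 145 FPKM in CFZ, and 126 and 136 FPKM in control (-0.09 ± 0.12). Chaperones of the endoplasmic reticulum had a median of 0.09, with 9 of 22 higher in both libraries. The list of cytosolic chaperone genes, which also holds the transcription factor gene Hsf1, had a median of 0.0012. Of its 21 tested genes 11 were higher and 10 lower, with 3 higher and 4 lower in both CFZ_EA libraries, and edgeR called 0. Among them Hsp90aa1, the inducible form of HSP90, measured 5.55 and 5.68 FPKM in CFZ_EA and 3.89 and 3.61 FPKM in CFZ (0.59 ± 0.20). Hsf1, the heat shock transcription factor, measured 2.85 and 3.03 FPKM in CFZ_EA and 4.42 and 3.76 FPKM in CFZ (-0.46 ± 0.13). The 2 genes thus differed in opposite directions without overlap.

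Genes of contraction held differences in single members and medians near 0, at 0.03 for sarcomere genes and -0.01 for calcium handling genes. Of 13 conduction system markers 5 were tested, and 3 of the 5 were higher in both CFZ_EA libraries. Of the 4 with a CFZ mean of at least 1 FPKM, 2 were higher in both. The list median of 0.27 was 0.59 without CFZ replicate 1. At a mean FPKM of at least 5 only Smoc2 of this list remained, so the value of -0.11 there was that of Smoc2 alone. In these 3 lists edgeR called 0 genes. Camk2d, the main cardiac calcium/calmodulin-dependent kinase, measured 1.40 and 1.34 FPKM in CFZ_EA, 2.85 and 2.04 FPKM in CFZ, and 2.21 and 1.85 FPKM in control (-0.82 ± 0.19). Cacna2d1, an auxiliary subunit of the L-type calcium channel, measured 2.04 and 0.810 FPKM in CFZ_EA and 3.72 and 3.82 FPKM in CFZ (-1.40 ± 0.40). Outside these 3 lists, Gja1, the ventricular gap junction protein connexin 43, measured 13.1 and 11.8 FPKM in CFZ_EA and 25.03 and 16.5 FPKM in CFZ (-0.72 ± 0.20). These 3 genes were below both CFZ libraries in each CFZ_EA library. Casq1, a calsequestrin that stores calcium, measured 17.0 and 16.9 FPKM in CFZ_EA, 9.17 and 7.97 FPKM in CFZ, and 18.5 and 11.3 FPKM in control (0.99 ± 0.27). Cntn2, an adhesion protein that marks Purkinje fibres, measured 3.39 and 0.962 FPKM in CFZ_EA and 0.512 and 0.191 FPKM in CFZ (2.65 ± 0.68). With means of 0.352 FPKM in CFZ and 0.595 FPKM in control, it would not have passed the filter without the CFZ_EA libraries. Camk2d and Cacna2d1 overlap other models on the same strand, and their summed loci had log2 fold changes of -0.80 and -1.40.

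Genes used as measures of cardiac stress did not move together. Nppb, the B-type natriuretic peptide gene, measured 245 and 189 FPKM in CFZ_EA, 73.1 and 242 FPKM in CFZ, and 266 and 114 FPKM in control (0.44 ± 0.65), so the groups overlapped. Myh7, the slow myosin heavy chain, measured 121 and 65.8 FPKM in CFZ_EA, 61.6 and 62.5 FPKM in CFZ, and 60.7 and 60.8 FPKM in control (0.59 ± 0.27), and only the first CFZ_EA library stood apart. Myh6, the fast myosin heavy chain, measured 3574 and 3405 FPKM in CFZ_EA and 3422 and 3362 FPKM in CFZ (0.05 ± 0.22). The list of stress genes had 16 of 21 tested members higher and a median of 0.17, and it holds Nppa, which the atrial list also holds.

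Macrophage markers had a median of 0.0046 with 1 of 13 higher in both libraries, and interferon response genes had a median of 0.09 with 4 of 19. Over all genes tested 16.7% were higher in both, so the interferon count was near that share. Genes of complement and the acute phase had 11 of 14 higher, 6 of them in both CFZ_EA libraries, with a median of 0.30 (0.19 without CFZ_EA replicate 2). In these 3 lists edgeR called 0 genes. Gbp3, an interferon-induced GTPase, measured 1.72 and 1.56 FPKM in CFZ_EA, 0.811 and 0.998 FPKM in CFZ, and 2.21 and 1.86 FPKM in control (0.86 ± 0.25). Trac, the constant chain of the T cell receptor alpha, measured 1.32 and 2.04 FPKM in CFZ_EA, 0.673 and 0.657 FPKM in CFZ, and 1.25 and 1.53 FPKM in control (1.32 ± 0.35). It was 1 of 3 tested genes among 15 T, NK and B cell markers, whose median was 0.22. Of the other members, Ighm had 0.22 and Igkc, lower in both CFZ_EA libraries, had -0.25. Gbp3 and Trac had CFZ_EA values in the range of control or near it. Of markers of other tissues, those of lung epithelium and thymus summed to at most 0.186 FPKM and those of skeletal muscle to between 2.37 and 4.11 FPKM in any library.

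Several single genes outside these lists had small spread within both groups. Snx3, a sorting nexin that works with retromer on endosomes, measured 43.4 and 35.9 FPKM in CFZ_EA, 77.0 and 76.3 FPKM in CFZ, and 80.6 and 85.4 FPKM in control (log2 fold change -0.94 ± 0.12, edgeR adjusted p = 0.397). Paip2, a repressor of translation that binds poly(A)-binding protein, measured 11.8 and 11.6 FPKM in CFZ_EA, 23.8 and 19.8 FPKM in CFZ, and 19.5 and 17.2 FPKM in control (-0.89 ± 0.14). Here the CFZ_EA libraries stood below the control libraries as well as below CFZ. Clcn6, a chloride and proton exchanger of late endosomes, measured 1.05 and 0.693 FPKM in CFZ_EA, 2.63 and 2.02 FPKM in CFZ, and 2.10 and 2.32 FPKM in control (-1.40 ± 0.23). Spcs1, a subunit of signal peptidase, measured 25.9 and 21.5 FPKM in CFZ_EA and 39.3 and 40.6 FPKM in CFZ, and Nrarp, a Notch-regulated ankyrin repeat protein, measured 3.75 and 3.74 FPKM in CFZ_EA and 5.86 and 6.61 FPKM in CFZ. Insr, the insulin receptor, measured 1.42 and 1.34 FPKM in CFZ_EA and 3.28 and 3.36 FPKM in CFZ, with 4.05 and 1.57 FPKM in control (-1.26 ± 0.44). Pacs2, a sorting protein of contacts between the endoplasmic reticulum and mitochondria, had -0.77 ± 0.15 and the septin Sept8 had -0.94 ± 0.20. For Pacs2 the control libraries, at 3.65 and 4.62 FPKM, were close to those of CFZ_EA, at 4.64 and 3.77 FPKM, and CFZ was higher, at 7.20 and 7.19 FPKM.

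Among single genes on the higher side, Rai1, a chromatin-associated regulator, measured 3.10 and 2.67 FPKM in CFZ_EA, 1.17 and 1.31 FPKM in CFZ, and 1.34 and 1.43 FPKM in control (1.22 ± 0.16, edgeR adjusted p = 0.397). Kidins220, a scaffold of neurotrophin signalling, measured 3.43 and 3.96 FPKM in CFZ_EA, 1.57 and 1.47 FPKM in CFZ, and 1.75 and 1.496 FPKM in control (1.29 ± 0.18). Nutf2, which carries the GTPase Ran into the nucleus, measured 25.2 and 23.1 FPKM in CFZ_EA, 14.9 and 13.7 FPKM in CFZ, and 11.5 and 13.3 FPKM in control (0.77 ± 0.12). These 3 genes stood above the 4 other libraries, with CFZ and control close to each other. Scamp4, a secretory carrier membrane protein, measured 9.14 and 10.3 FPKM in CFZ_EA, 3.27 and 1.903 FPKM in CFZ, and 4.03 and 4.52 FPKM in control (1.93 ± 0.25), and the locus summed over its overlapping models had 1.18 ± 0.17. Ncoa4, the receptor that delivers ferritin to lysosomes, measured 4.65 and 4.13 FPKM in CFZ_EA, 1.12 and 0.589 FPKM in CFZ, and 2.10 and 4.65 FPKM in control (2.38 ± 0.41). None of these 5 genes was called by edgeR, and DESeq2 called all 5.

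**Figure D5:**
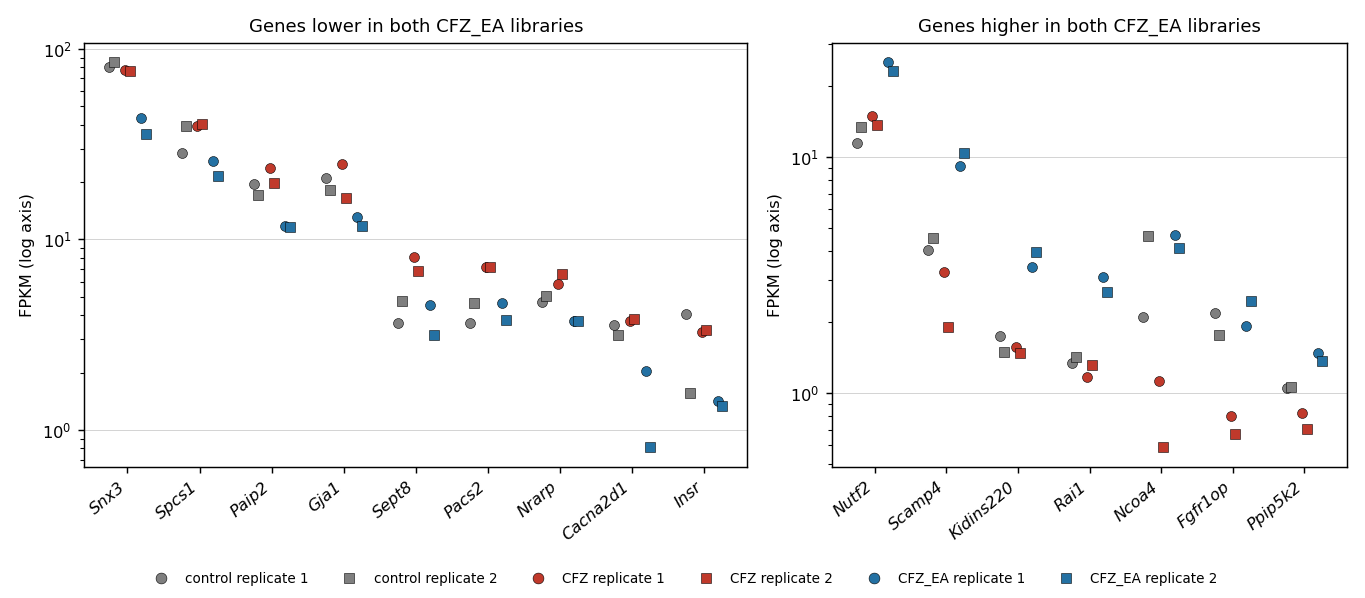
FPKM (y axes, log scale) of single genes that were lower (left) or higher (right) in both CFZ_EA libraries, with circles for replicate 1 and squares for replicate 2. The CFZ_EA libraries of Snx3, at 43.4 and 35.9 FPKM, lie below the other 4 libraries, and those of Nutf2, at 25.2 and 23.1 FPKM, above them.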

How the data were processed

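The series holds 6 heart RNA libraries in 3 labelled groups. StringTie 1.3.4d, HISAT2 2.0.4 and cutadapt 1.9 are listed in the submitters' processing notes, with GRCm38 as the build. The annotation release is not given in the sources used here. The authors deposited FPKM values and a count for each library, per the file headers, and these deposited counts were treated as estimated counts and rounded. Between 42.2% and 43.3% of counts from 1 to 20 were multiples of 4, so deposited counts may exceed the number of reads. Library totals ran from 50013990 to 75742448 counts, where 3 counts equal 0.0396 to 0.0600 CPM, and intervals cover counting error only.

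All 6 libraries entered 1 edgeR quasi-likelihood model with TMM scaling and a term for group alone (3 residual degrees of freedom), and p-values were adjusted over 10329 genes. Log2 fold changes carry standard errors from that fit, and ratios of single libraries used a pseudocount of 0.1 CPM. No pair of the 6 libraries shared counts for more than 0.455% of the genes tested, and on the first principal component, which held 37.2% of the variance, control replicate 2 stood apart. The members and the 56 gene lists (19 of them cell type markers) were chosen with earlier results of these data known, and lists are described by counts and medians without a test. Genes were named by a rule: in each direction the 10 with the largest change among called genes or else the smallest p among genes whose groups do not overlap, the 10 with the largest gap between groups, the 6 with the largest ratio between the CFZ_EA libraries at a mean of at least 5 FPKM, the 4 smallest p of each list, and Psmb5, Nppa, Nppb, Myh6, Myh7, Myl2 and Myl7. The text names a part of these. Promoter and microRNA sequences are from RefSeq (GRCm38.p6), and the promoter set at hand held no entry for Comp, Sln, Dkk3, Paip2 or Plvap. Alternatives were other filters, scalings and tests, other sets of libraries and the replicate number as a block. Added after seeing the data were counts divided by 4, overlapping models summed, and a fit without control replicate 2 and CFZ_EA replicate 2. The steps were tested on simulated counts of 10329 genes. Changes were put only into genes whose expected counts passed a floor in the smallest library. Counts were drawn at the fitted spread of each gene around a base mean shared by all groups. Of the changes put in, 28.4% were recovered at 2-fold, 94.0% at 4-fold and 95.5% at 8-fold, and 15 unchanged genes were called. These shares hold for that setting and do not measure how many real changes these libraries can show. Versions were DESeq2 1.42.0, edgeR 4.0.16 and limma 3.58.1 in R 4.3.3, with Python 3.11.15.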

Additional observations from a re-analysis of the deposited data

How the results depend on the processing

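The 2 genes called higher became 38 with DESeq2, 1 with counts divided by 4, 0 with overlapping models summed (10055 loci), and 0 to 4 with 1 library (or control replicate 2 and CFZ_EA replicate 2 together) left out, 0 being the count without CFZ replicate 1 and without CFZ_EA replicate 2. The 0 called lower became 17 with DESeq2, 1 in the fit of 4 libraries only and 0 to 1 with libraries left out in this way. The number of genes with both CFZ_EA libraries above both CFZ libraries was 3954 without the FPKM filter, 753 at a mean FPKM of at least 5 and 1746 to 3659 with libraries left out. The number of genes with both CFZ_EA libraries below both CFZ libraries was 3445, 786 and 1657 to 3707 under these settings, which test other numbers of genes or compare fewer libraries. Samples of a pair share only a replicate number: the deviations of same-numbered CFZ and CFZ_EA libraries correlated at 0.075, and the fit with the replicate number as a block called 2 genes higher and 0 lower. Of 71 gene models checked, 63 kept their direction under every alternative that gave a value, which was 19 for 40 models and 18 for the 31 below a mean FPKM of 5. With overlapping models summed, the log2 fold change of Mir8114 was -0.23 and that of the second Sept2 model 0.068. With libraries left out, the log2 fold changes of 6 genes crossed 0, at -2.26 to 10.04 (Bmp10), -0.21 to 0.0393 (Psmb5), -0.20 to 1.63 (Nppb), -4.06 to 0.27 (Ak4), -3.44 to 0.0144 (Ntn1), -6.16 to 1.91 (Cthrc1). The valve and tendon median was 1.53 without the FPKM filter, 0.80 with limma on log2(FPKM + 1) and 1.46 on log2(FPKM + 0.1). At a mean FPKM of at least 5 only Mgp of that list remained, at 0.66. The conduction system median was 0.65 without the FPKM filter. At a mean FPKM of at least 5 only Smoc2 of that list remained, at -0.11. The endocardial median was 0.77 with limma on log2(FPKM + 1). With libraries left out, medians ran at 1.62 to 4.39 (atrial cardiomyocyte), -0.18 to -0.0513 (ventricular cardiomyocyte), 0.29 to 1.81 (epicardium and mesothelium), 1.43 to 1.71 (valve and tendon), -0.17 to -0.0824 (endothelium), 0.82 to 1.65 (endocardium and vein), -0.0356 to 0.54 (smooth muscle), -0.10 to 0.11 (sarcomere), 0.0876 to 0.47 (natriuretic and cardiac stress), 0.0634 to 0.0995 (ER chaperones and unfolded protein response), 0.0534 to 0.57 (mitochondrially encoded), 0.12 to 0.55 (collagen and matrix), -0.16 to -0.052 (mitochondrial ribosome), -0.26 to -0.0408 (pericyte), -0.15 to -0.0031 (proteasome), 0.27 to 0.59 (conduction system). The cause of these shifts was not tested. Of 24 list medians 16 kept their sign under every alternative. Of the others, that of the conduction system changed sign at a mean FPKM of at least 5, where Smoc2 alone remained. The rest (smooth muscle, macrophage, cytosolic ribosomal, fatty acid, sarcomere, calcium handling and interferon) were within 0.1 of 0. At these depths a level under 3 counts in a library, 0.0396 to 0.0600 CPM, could not be told from 0.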

Other observations

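Some genes differed more between the 2 CFZ_EA libraries than between the groups. Ntn1, the gene of the guidance protein netrin-1, measured 16.4 and 1.45 FPKM in CFZ_EA, 16.3 and 16.1 FPKM in CFZ, and 13.5 and 14.6 FPKM in control. Ak4, a mitochondrial adenylate kinase, measured 9.90 and 0.473 FPKM in CFZ_EA, 10.1 and 6.39 FPKM in CFZ, and 5.58 and 6.94 FPKM in control. In both genes CFZ_EA replicate 2 was the 1 low library of the 6. The adaptor gene Pttg1ip measured 33.8 and 7.38 FPKM in CFZ_EA, 11.2 and 8.24 FPKM in CFZ, and 32.6 and 10.7 FPKM in control. Nfix, a nuclear factor I gene, measured 11.4 and 2.42 FPKM in CFZ_EA and 21.3 and 1.92 FPKM in CFZ. The first library of each group was the higher one for Nfix in these 2 groups, and in control it measured 2.38 and 3.33 FPKM.

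Hamp, the gene of the iron hormone hepcidin, named after its values were seen, measured 7.10 and 30.5 FPKM in CFZ_EA, 2.19 and 0.858 FPKM in CFZ, and 27.0 and 0.25 FPKM in control. H19, an imprinted noncoding RNA, measured 9.93 and 19.7 FPKM in CFZ_EA, 4.57 and 6.28 FPKM in CFZ, and 9.96 and 19.9 FPKM in control, with a log2 fold change of 1.45 ± 0.44. Igf2, the growth factor gene beside it, measured 6.77 and 13.2 FPKM in CFZ_EA, 5.81 and 3.98 FPKM in CFZ, and 9.02 and 9.45 FPKM in control (1.05 ± 0.33). Both had CFZ_EA libraries above both CFZ libraries, and neither was called by edgeR. Rgs4, a regulator of G protein signalling, measured 4.61 and 4.39 FPKM in CFZ_EA, 6.41 and 5.94 FPKM in CFZ, and 5.00 and 4.90 FPKM in control (-0.45 ± 0.14). Gm14150, a processed pseudogene named after its values were seen, measured 0.814 and 0.686 FPKM in CFZ_EA, 9.42 and 8.57 FPKM in CFZ, and 0.672 and 1.73 FPKM in control. Its log2 fold change was -3.56 ± 0.43, and its edgeR adjusted p was 0.397.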
